A study of Mus musculus with 16 samples.

Results

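The genes described here were the 53 listed DNA replication and S phase genes, chosen by name and matched in the deposited table by gene symbol. All 53 were found among its 22287 genes, and all 53 were among the 12514 genes that passed the expression filter, which kept genes with enough counts in at least the libraries of 1 group. RNA-seq was performed on mouse bone marrow derived macrophages (BMDMs), which are macrophages grown from marrow cells in culture. Marrow of C57BL/6J mice aged 8 weeks was cultured for 7 days with GM-CSF (GM) or M-CSF (M), on standard dishes treated to promote attachment (TC) or on untreated dishes (noTC), and cells were left at steady state or given LPS, a bacterial cell wall component that triggers inflammation, for 3 h. This gave 8 groups of 2 libraries each: M-noTC, M-TC, GM-noTC and GM-TC, and the same 4 with LPS (for example M-noTC-LPS). No engineered allele is named for any group, cells were seeded at a higher density with GM-CSF than with M-CSF, and the study calls the 2 libraries of a group biological replicates without saying whether they came from separate mice or from separate cultures.

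DNA is copied once per cell cycle, in S phase. Origins are licensed in G1 by ORC, Cdc6 and Cdt1, which load the ring-shaped MCM helicase, and are fired in S phase when Cdc45 and GINS join it; polymerases, the sliding clamp PCNA, nucleotide enzymes, chromatin assembly factors and repair proteins then act at the fork. Many of these genes are transcribed together at the G1 to S transition under E2F factors. In marrow cultures M-CSF is the main mitogen of macrophages, GM-CSF also supports their growth, and LPS is known to arrest macrophage proliferation.

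Libraries held between 17527802 and 31458363 counts, so that 3 counts corresponded to 0.0954 to 0.171 CPM, the count scaled to a common library total. No library had 0 counts for any of the 53 genes, and the gene with the fewest had 350 counts over all 16 libraries. Macrophage markers were abundant in every library (9 genes summing to between 20533 and 47832 CPM), whereas the 7 lymphoid markers summed to at most 1.14 CPM and the 7 erythroid markers to at most 1.31 CPM. Of the 8 neutrophil markers Mmp8 alone reached 645.6 to 941.5 CPM in GM libraries, while the other 7 summed to between 12.6 and 44.6 CPM there and to at most 2.05 CPM in M libraries. The 8 heart muscle genes summed to between 21.1 and 60.1 CPM in the 4 steady state TC libraries and to at most 1.48 CPM elsewhere. In the steady state noTC libraries, genes nearly absent from their TC partner but abundant in other libraries were present at 0.675% (GM) and 0.600% (M) of the level in those others; reads at that share would account for 0.169% to 2.11% of the GM-noTC level of each of the 53 genes and for 0.0574% to 0.38% of the M-noTC level. Levels below are CPM scaled with TMM factors, which assume that most genes do not change, and log2 fold changes are given with their standard error. Genes are said to have risen or fallen only where edgeR's quasi-likelihood test gave a Benjamini-Hochberg adjusted p under 0.05 over all 12514 genes.

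The 53 genes were most abundant in M-noTC cells. Their summed level was 2729.2 and 2613.8 CPM in the M-noTC libraries, 1474.9 and 1481.4 CPM in M-TC, 1328.1 and 1314.9 CPM in GM-noTC, and 1200.6 and 1187.7 CPM in GM-TC. Upon LPS challenge it was 1611.9 and 1603.0 CPM in M-noTC, 1089.0 and 1103.0 CPM in M-TC, 800.9 and 835.2 CPM in GM-noTC, and 754.6 and 758.5 CPM in GM-TC. The sums of replicates thus lay within a few percent of each other. In these sums the 2 dishes did not overlap in M cells or, with a smaller difference, in GM cells, at steady state or after LPS. Nor did the steady state and LPS libraries of any group overlap. Over single genes the GM-TC replicates differed most, with a chi-square per degree of freedom of 12.9 against 1.92 to 5.27 in the other groups. In 48 of the 53 genes both M-noTC libraries were above each of the other 14 libraries, which held for 8.74% of all genes tested. By group mean the 5 exceptions were highest elsewhere: Orc1, Mcm10 and Pcna in M-noTC-LPS, Rfc3 in M-TC-LPS and Ung in GM-TC. The M-TC-LPS libraries overlapped those of M-noTC-LPS in Rfc3, and the GM-TC libraries overlapped those of GM-noTC in Ung. By group mean, M-noTC was highest for 48 genes (14.3% of all genes), and with scaling by library size alone for 50, Pcna and Rfc3 among them. Being bulk RNA, these values cannot tell fewer cells in S phase from less RNA of these genes in each cell.

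**Figure D1:**
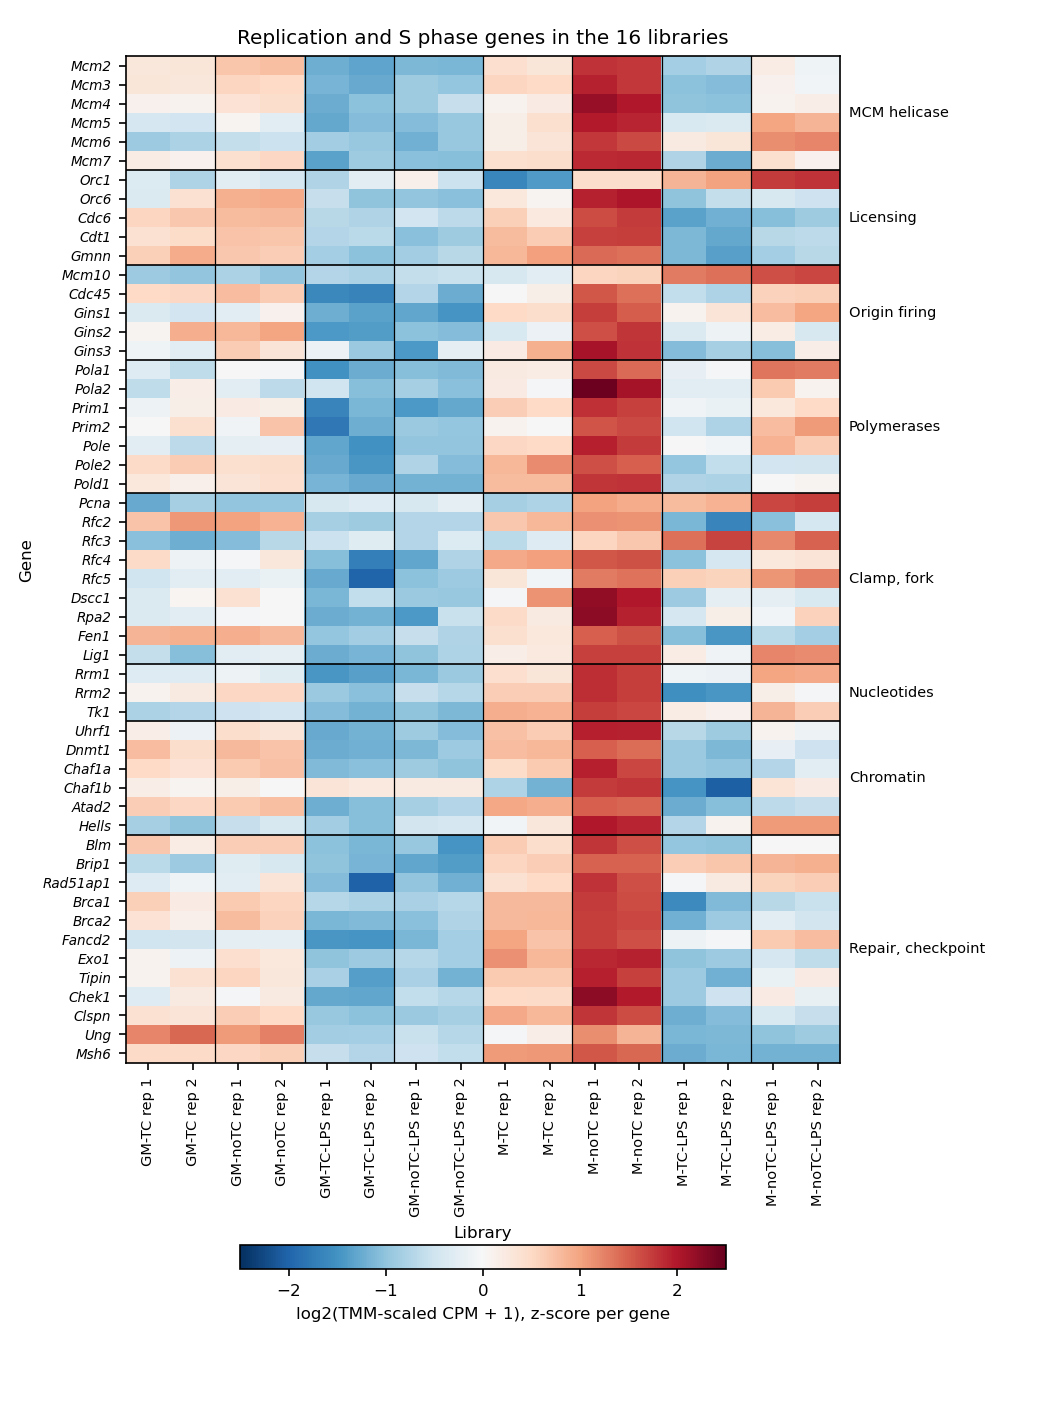
Level of each of the 53 genes in the 16 libraries as log2(TMM-scaled CPM + 1), standardised per gene (colour, z-score), with genes in rows by role and libraries in columns by group. The M-noTC columns are the highest for 48 genes, and Orc1, Mcm10, Pcna and Rfc3 stand apart by their high level in the M libraries with LPS.

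Per kilobase of exon (lengths from GENCODE M21, found for all 53 genes), Pcna was the most abundant of the 53 in M-noTC cells, with 64.8 ± 7.19 CPM per kb in GM-TC, 71.0 ± 1.09 in M-TC and 134.8 ± 2.72 in M-noTC (SD, n = 2). It alone made up between 11.4% and 14.1% of the summed CPM of the 53 genes at steady state and between 24.5% and 28.3% after LPS. In M-noTC cells it was followed by Rrm2 at 35.6 ± 1.77 CPM per kb, Mcm6 at 34.3 ± 1.198, Dnmt1 at 30.9 ± 1.43 and Mcm3 at 27.6 ± 1.33. Rrm2 and Mcm6 differed by less than the SD of Rrm2. The least abundant were Dscc1 at 0.564 ± 0.0413 and Ung at 0.668 ± 0.127 CPM per kb.

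Promoters were searched for letters that E2F factors are known to bind. RefSeq promoter sequences (GRCm38.p6, 250 bases before to 50 bases after the start) were given for 41 of the 53 genes; Prim2, Rfc2, Mcm4, Tipin, Atad2, Dscc1, Gmnn, Fancd2, Gins2, Pole, Exo1 and Gins1 were not among them. An E2F spelling (TTTCCCGC, TTTCGCGC, TTTGCCGC or TTTGGCGC, on either strand) was present in 19 of the 41 (46.3%), compared with 704 of 27025 genes (2.605%). The box CCAAT, on either strand, was present in 26 of the 41 (63.4%) and in 41.1% of all genes, and TTTGAA, the CHR element of genes expressed late in the cycle, in 5 of the 41 (12.2%) and in 20.2% of all genes. Matches of the E2F spellings can overlap each other, as they do in Mcm6 and Mcm5. The promoters printed are those of Mcm6, with the most matches (3), of Mcm5 with 2 matches, of Cdc6 with 1, which had the largest dish difference of M cells, of Orc1 with 1 and Rfc3 with 2, which rose in M cells with LPS, and of Mcm10, which also rose and held no match in this window. They are written 5′ to 3′ on the strand of the gene, with E2F spellings in capitals. The Mcm10 window ends with the letters TTTGGCG, the start of TTTGGCGC, so that a match across its edge could not be seen.
Mcm6, chr1:128359656-128359955, minus strand: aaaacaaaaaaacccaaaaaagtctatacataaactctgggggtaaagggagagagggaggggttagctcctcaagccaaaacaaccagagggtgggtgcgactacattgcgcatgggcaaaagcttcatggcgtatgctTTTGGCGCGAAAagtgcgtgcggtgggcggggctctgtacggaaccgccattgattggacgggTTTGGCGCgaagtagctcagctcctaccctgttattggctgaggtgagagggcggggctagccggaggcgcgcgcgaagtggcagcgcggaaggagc
Mcm5, chr8:75109259-75109558, plus strand: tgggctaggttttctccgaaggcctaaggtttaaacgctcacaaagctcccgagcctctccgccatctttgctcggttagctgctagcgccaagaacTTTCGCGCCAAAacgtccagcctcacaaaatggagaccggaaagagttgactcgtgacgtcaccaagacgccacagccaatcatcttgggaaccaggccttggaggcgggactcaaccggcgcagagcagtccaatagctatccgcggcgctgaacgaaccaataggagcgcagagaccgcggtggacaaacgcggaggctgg
Cdc6, chr11:98907901-98908200, plus strand: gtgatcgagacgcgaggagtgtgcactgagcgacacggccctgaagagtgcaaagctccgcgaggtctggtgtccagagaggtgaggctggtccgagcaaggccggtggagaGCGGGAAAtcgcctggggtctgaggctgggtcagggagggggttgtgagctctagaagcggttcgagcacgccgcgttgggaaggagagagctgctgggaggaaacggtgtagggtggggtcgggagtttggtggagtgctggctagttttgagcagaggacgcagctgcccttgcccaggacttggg
Orc1, chr4:108579204-108579503, plus strand: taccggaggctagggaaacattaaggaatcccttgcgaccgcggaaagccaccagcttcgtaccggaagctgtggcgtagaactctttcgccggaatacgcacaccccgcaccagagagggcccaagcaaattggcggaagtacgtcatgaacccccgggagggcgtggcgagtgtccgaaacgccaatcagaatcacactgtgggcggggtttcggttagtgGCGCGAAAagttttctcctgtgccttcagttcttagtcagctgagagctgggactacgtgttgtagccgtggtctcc
Rfc3, chr5:151651159-151651458, minus strand: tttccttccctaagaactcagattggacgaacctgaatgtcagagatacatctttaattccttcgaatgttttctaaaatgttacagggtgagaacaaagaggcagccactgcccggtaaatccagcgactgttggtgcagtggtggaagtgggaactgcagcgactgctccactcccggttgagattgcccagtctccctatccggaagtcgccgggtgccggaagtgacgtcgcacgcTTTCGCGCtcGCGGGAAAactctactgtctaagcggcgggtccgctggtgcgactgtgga
Mcm10, chr2:5012742-5013041, minus strand: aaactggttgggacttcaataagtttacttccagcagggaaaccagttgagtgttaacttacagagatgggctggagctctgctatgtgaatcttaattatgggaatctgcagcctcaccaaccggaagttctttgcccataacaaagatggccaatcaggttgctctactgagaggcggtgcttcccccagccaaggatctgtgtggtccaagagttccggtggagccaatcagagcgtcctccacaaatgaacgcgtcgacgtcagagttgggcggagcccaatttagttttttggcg

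The letters lay close to the start in several of these genes. Counted from the RefSeq start, the E2F letters of Rfc3 began at -10 and 0, that of Orc1 at -27, those of Mcm6 at -110, -106 and -47, those of Mcm5 at -153 and -149, and that of Cdc6 at -138. Comparing M-noTC with M-TC, the 19 genes with a match had a median log2 fold change of 0.91 and the 22 without one of 0.92. After LPS the medians with and without a match were -1.24 and -1.005 in M-noTC cells, -1.08 and -0.57 in M-TC, -1.17 and -0.91 in GM-noTC, and -0.97 and -0.94 in GM-TC; these differences were not tested. A match describes the letters only and is not evidence that a factor binds there.

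Whether the dish changes these genes in M cells at steady state was addressed by comparing M-noTC with M-TC. Of the 53 genes, 51 were higher in M-noTC and 0 were lower by edgeR (0 also at an unadjusted p under 0.05 and by DESeq2), with a median log2 fold change of 0.91; of all genes tested, 16.1% were called higher and 11.1% lower, and their median was 0.01. The libraries of the 2 groups did not overlap in any of the 53 genes, which was so for 66.9% of all genes, and 19 were more than 2-fold higher, beside 2.65% of all genes. The 2 genes not called were the clamp loader subunits Rfc2, at 0.17 ± 0.08, and Rfc4, at 0.43 ± 0.17. Each role held genes that rose: the median was 1.07 for the 6 MCM genes, 0.85 for the 5 licensing genes, 0.86 for the 5 origin firing genes, 0.81 for the 7 polymerase and primase genes, 0.75 for the 9 clamp and fork genes, 0.87 for the 3 nucleotide genes, 1.11 for the 6 chromatin genes and 0.91 for the 12 repair and checkpoint genes. Over the same libraries the 8 myeloid progenitor markers summed to between 9.97 and 10.1 CPM in M-TC and between 11.1 and 13.04 CPM in M-noTC, with 3 of them at 0 counts in both libraries of each group, and the neutrophil markers other than Mmp8 to at most 0.441 CPM, with 3 at 0. The 9 macrophage markers summed to between 25123 and 25635 CPM in M-TC and between 20533 and 21742 CPM in M-noTC, of which Lyz2 made up 72.8% to 76.3%. The heart muscle genes were at 33.9 and 60.1 CPM in M-TC and at most 0.209 CPM in M-noTC. The part of these markers in the result was not tested.

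All 6 subunits of the MCM2 to MCM7 ring, which unwinds the duplex, rose together on noTC dishes in M cells, by log2 fold changes between 0.90 and 1.18. Mcm5 was at 33.9 and 38.0 CPM in the M-TC libraries and 78.7 and 75.7 CPM in M-noTC, a log2 fold change of 1.10 ± 0.07 with an edgeR adjusted p of 2.93e-10. Mcm2 was at 25.8 and 24.1 CPM in M-TC and 57.4 and 56.0 in M-noTC, a change of 1.18 ± 0.07. The spread between replicates was far smaller than these differences.

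Among licensing genes the largest change was that of Cdc6, the ATPase that works with ORC to load the ring, at 6.70 and 4.86 CPM in M-TC and 15.9 and 17.54 CPM in M-noTC, or 1.54 ± 0.14 (edgeR adjusted p 2.47e-08). Orc1, the largest ORC subunit, was at 2.23 and 2.51 CPM in M-TC and 6.17 and 6.16 in M-noTC, or 1.37 ± 0.17. Cdt1, which loads the ring with Cdc6, rose by 0.85 ± 0.07. Gmnn, encoding geminin, which binds Cdt1 and prevents reloading, rose less, by 0.52 ± 0.11, and Orc6 rose by 0.83 ± 0.12. Of the genes that turn a loaded ring into an active helicase, Mcm10 rose by 1.04 ± 0.08, Cdc45 by 0.996 ± 0.11, Gins1 by 0.86 ± 0.14, Gins3 by 0.60 ± 0.16 and Gins2 by 0.54 ± 0.08.

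The catalytic subunit of the leading strand polymerase, Pole, showed the largest change among polymerases, with 20.2 and 19.98 CPM in M-TC and 51.7 and 45.5 CPM in M-noTC, a log2 fold change of 1.27 ± 0.09. Prim1, the small primase subunit, rose by 0.93 ± 0.11, Pold1, the catalytic subunit of the lagging strand polymerase, by 0.91 ± 0.08, and Pola1, that of the polymerase that extends primers, by 0.81 ± 0.08. At the fork, the clamp Pcna was at 168 and 172 CPM in M-TC and 328 and 319 in M-noTC, a change of 0.93 ± 0.06. Lig1, the ligase that seals Okazaki fragments, rose by 1.09 ± 0.08 and Fen1, the flap nuclease, by 0.58 ± 0.06. Clamp loader subunits were less uniform, with Rfc3 at 0.75 ± 0.12 and Rfc5 at 0.68 ± 0.09 past the threshold and Rfc2 and Rfc4 not.

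Both ribonucleotide reductase subunits, which make deoxynucleotides, rose: Rrm2 was at 48.9 and 49.0 CPM in M-TC and 102 and 95.2 in M-noTC (1.01 ± 0.06) and Rrm1 rose by 0.83 ± 0.06. Thymidine kinase Tk1 rose by 0.87 ± 0.09. Uhrf1, which brings the maintenance methyltransferase to new DNA, was at 31.4 and 29.0 CPM in M-TC and 76.4 and 75.2 in M-noTC, a change of 1.33 ± 0.09, and the methyltransferase itself, Dnmt1, rose by 0.65 ± 0.09. The histone chaperone subunits Chaf1b and Chaf1a rose by 1.195 ± 0.09 and 1.07 ± 0.10, and the remodeller Hells by 1.14 ± 0.10. Among repair and checkpoint genes, the uracil glycosylase Ung rose most, by 1.36 ± 0.23, from 1.24 and 1.57 CPM in M-TC to 4.14 and 3.16 CPM in M-noTC. The checkpoint kinase Chek1 rose by 1.15 ± 0.15, its mediator Clspn by 1.08 ± 0.09, the recombination genes Brca1 and Rad51ap1 by 0.91 ± 0.11 and 0.93 ± 0.15, Fancd2 by 0.71 ± 0.10, the nuclease Exo1 by 0.91 ± 0.14 and the mismatch repair gene Msh6 by 0.51 ± 0.07.

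In GM cells the same comparison of dishes gave much smaller values. Comparing GM-noTC with GM-TC, 7 genes were higher and 0 lower by edgeR (0 also at an unadjusted p under 0.05 and by DESeq2), with a median log2 fold change of 0.16; 4.69% of all genes tested were called higher and 2.85% lower. The 7 were Brca2 (0.55 ± 0.14), Lig1 (0.43 ± 0.09), Uhrf1 (0.41 ± 0.10), Brip1 (0.39 ± 0.10), Mcm2 (0.36 ± 0.08), Rrm2 (0.30 ± 0.07) and Pola1 (0.29 ± 0.09). Rrm2 was at 36.1 and 39.0 CPM in GM-TC and 46.3 and 46.5 CPM in GM-noTC, and Mcm5, which did not pass the test, at 25.9 and 25.3 and 32.6 and 27.6 CPM. The libraries of the 2 groups did not overlap in 33 of the 53 genes, beside 45.2% of all genes. The count depended on the spread shared over all 16 libraries, and 0 genes were called in a fit to these 4 libraries alone. It also depended on single libraries. The count fell without the second GM-TC replicate or either GM-noTC replicate, and rose without the first GM-TC replicate. The median log2 fold change was 0.21 without the first GM-TC replicate and 0.18 without the second. Without the first or the second GM-noTC replicate it was 0.18. Under the block for replicate number and after subtraction of reads of other libraries, Pola1 was not called. At an unadjusted p under 0.05, 20 of the 53 genes were higher. The heart muscle genes summed to 21.1 and 43.9 CPM in GM-TC and at most 0.665 CPM in GM-noTC, and their part was not tested.

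**Figure D2:**
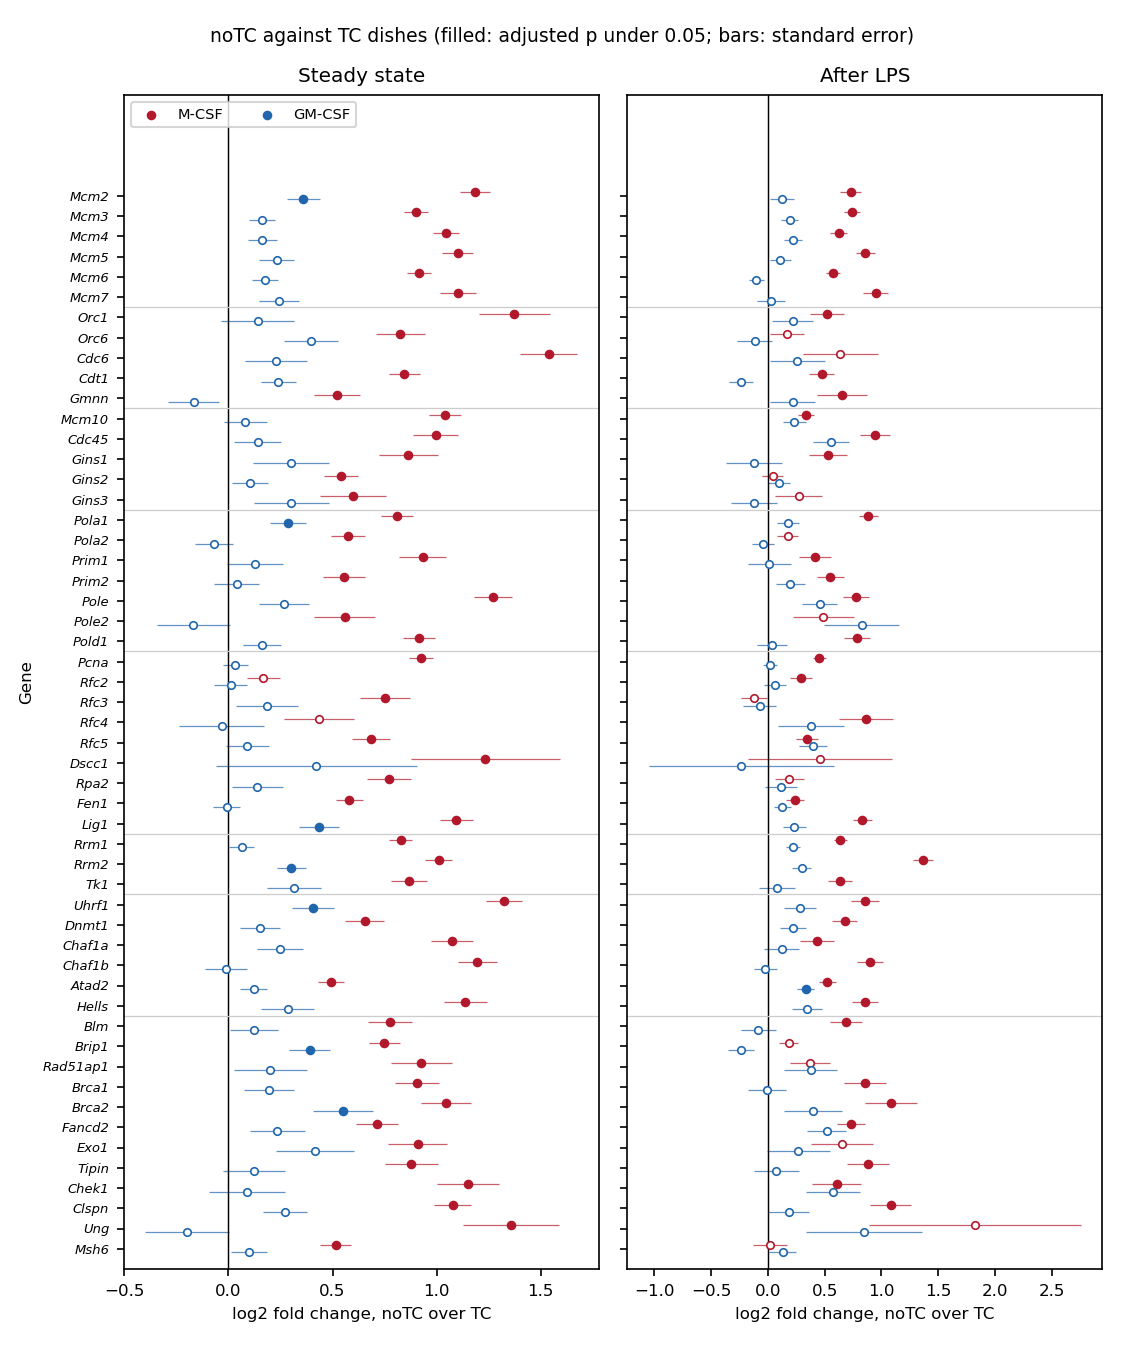
Log2 fold change of noTC over TC for each of the 53 genes (horizontal axis) at steady state (left) and after LPS (right), in M cells (red) and GM cells (blue), with the standard error as bars and filled points where the adjusted p is under 0.05. At steady state the M points lie to the right of the GM points for every gene, with 51 filled points in M and 7 in GM.

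The difference between the 2 growth factors in this dish effect was tested directly as an interaction. It was positive, with a larger rise in M cells, for 42 of the 53 genes and negative for 0 (edgeR; 0 also at an unadjusted p under 0.05 and by DESeq2), with a median of 0.71; 6.40% of all genes were called positive and 4.82% negative. The largest differences were those of Ung (1.56 ± 0.31), Cdc6 (1.31 ± 0.20), Orc1 (1.23 ± 0.25), Chaf1b (1.21 ± 0.14) and Chek1 (1.06 ± 0.24). Chaf1b was at 12.3 and 11.96 CPM in GM-TC and 12.3 and 11.8 CPM in GM-noTC, a log2 fold change of -0.01 ± 0.10, but at 9.25 and 8.16 CPM in M-TC and 19.8 and 20.05 CPM in M-noTC. The 2 M groups therefore lay on either side of the GM level of this gene.

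After LPS, M-noTC cells still held more of these transcripts than M-TC cells. Comparing M-noTC-LPS with M-TC-LPS, 39 genes were higher and 0 lower by edgeR (0 also at an unadjusted p under 0.05 and by DESeq2), with a median log2 fold change of 0.64; 10.4% of all genes were called higher and 12.9% lower. Of the 51 genes higher on noTC at steady state, 37 were also higher after LPS (72.5% of the 51 and 94.9% of the 39), whereas 6.19% of all genes were higher in both. Rrm2 showed the largest called difference, with 13.4 and 14.01 CPM in M-TC-LPS and 37.3 and 33.2 CPM in M-noTC-LPS, or 1.37 ± 0.09, followed by Brca2 (1.08 ± 0.23), Clspn (1.08 ± 0.18), Mcm7 (0.95 ± 0.11) and Cdc45 (0.95 ± 0.13). The fitted value was larger for Ung, but it rested on 1 count in each M-TC-LPS library and 3 and 5 in M-noTC-LPS, and the gene did not pass. Cdc6, which led at steady state, was at 0.738 and 0.930 CPM and 1.13 and 1.45 CPM, a change of 0.64 ± 0.33 that did not pass, and Msh6 was at 3.79 and 4.18 and 4.004 and 4.04 CPM.

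In GM cells with LPS, 1 gene was higher on noTC, the chromatin ATPase Atad2 at 0.33 ± 0.08. Of all genes tested, 2.08% were called higher and 0.727% lower. By edgeR 0 of the 53 were lower, and by DESeq2 also 0. At an unadjusted edgeR p under 0.05, 14 of the 53 were higher and 2 lower. The median log2 fold change of the 53 genes was 0.18. Atad2 was at 27.5 and 30.6 CPM in GM-TC-LPS and 35.4 and 37.8 CPM in GM-noTC-LPS. The interaction after LPS was positive for 17 genes and negative for 0 (edgeR; 0 also at an unadjusted p under 0.05 and by DESeq2), with a median of 0.42, beside 3.71% and 6.87% of all genes. Among the 17 it was largest for Rrm2 (1.07 ± 0.12), Mcm7 (0.92 ± 0.16), Chaf1b (0.92 ± 0.15), Clspn (0.90 ± 0.25) and Brca1 (0.86 ± 0.25).

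The LPS response was obtained within each growth factor and dish, and the 4 comparisons shared no library. Most of the 53 genes fell in each of them: 47 of 53 in M-noTC, 38 in M-TC, 46 in GM-noTC and 43 in GM-TC, with median log2 fold changes of -1.05, -0.81, -0.93 and -0.98. LPS moved a large part of the transcriptome, and 35.9%, 36.4%, 34% and 34.2% of all genes fell in the same comparisons. In all 4 comparisons 34 of the 53 genes fell, as did 22.7% of all genes tested. When libraries were scaled by their total alone, the median over all genes shifted to -0.73, -0.83, -0.54 and -0.53, and the medians of the 53 genes to -1.78, -1.63, -1.44 and -1.46, so that they stayed below that of all genes. Of the marker lists, the 6 stromal genes summed to at most 5.07 CPM at steady state and to between 22.2 and 45.5 CPM after LPS, mostly through Pdgfrb, and the 6 dendritic cell genes to at most 17.9 and to between 63.5 and 74.2 CPM in GM cells, mostly through Ccr7. Their part in the result was not tested.

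Repair genes and Cdc6 were among the steepest falls. Ung was at 4.34 and 5.15 CPM in GM-TC and 0.259 and 0.279 CPM in GM-TC-LPS, which is -4.12 ± 0.34 on the log2 scale, and -3.08 ± 0.30 in GM-noTC cells. In M cells Ung had 1 count in each M-TC-LPS library, a ratio 26.4-fold lower than in M-TC (95% exact interval of counting error, 7.06 to 222-fold), and 3 and 5 counts in M-noTC-LPS, 17.6-fold lower than in M-noTC (8.80 to 41.2-fold). Msh6 was at 31.0 and 31.4 CPM in M-TC and 3.79 and 4.18 CPM in M-TC-LPS (-2.97 ± 0.11), and at 46.7 and 42.5 and 4.004 and 4.04 CPM in the noTC groups (-3.47 ± 0.10), so that after LPS the 2 dishes overlapped. In GM cells Msh6 fell by less, with log2 fold changes of -1.48 ± 0.10 on TC and -1.45 ± 0.10 on noTC dishes. Cdc6 was at 15.9 and 17.54 CPM in M-noTC and 1.13 and 1.45 CPM in M-noTC-LPS (-3.69 ± 0.19), compared with -2.79 ± 0.24 in M-TC, -1.92 ± 0.20 in GM-TC and -1.89 ± 0.18 in GM-noTC cells.

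**Figure D3:**
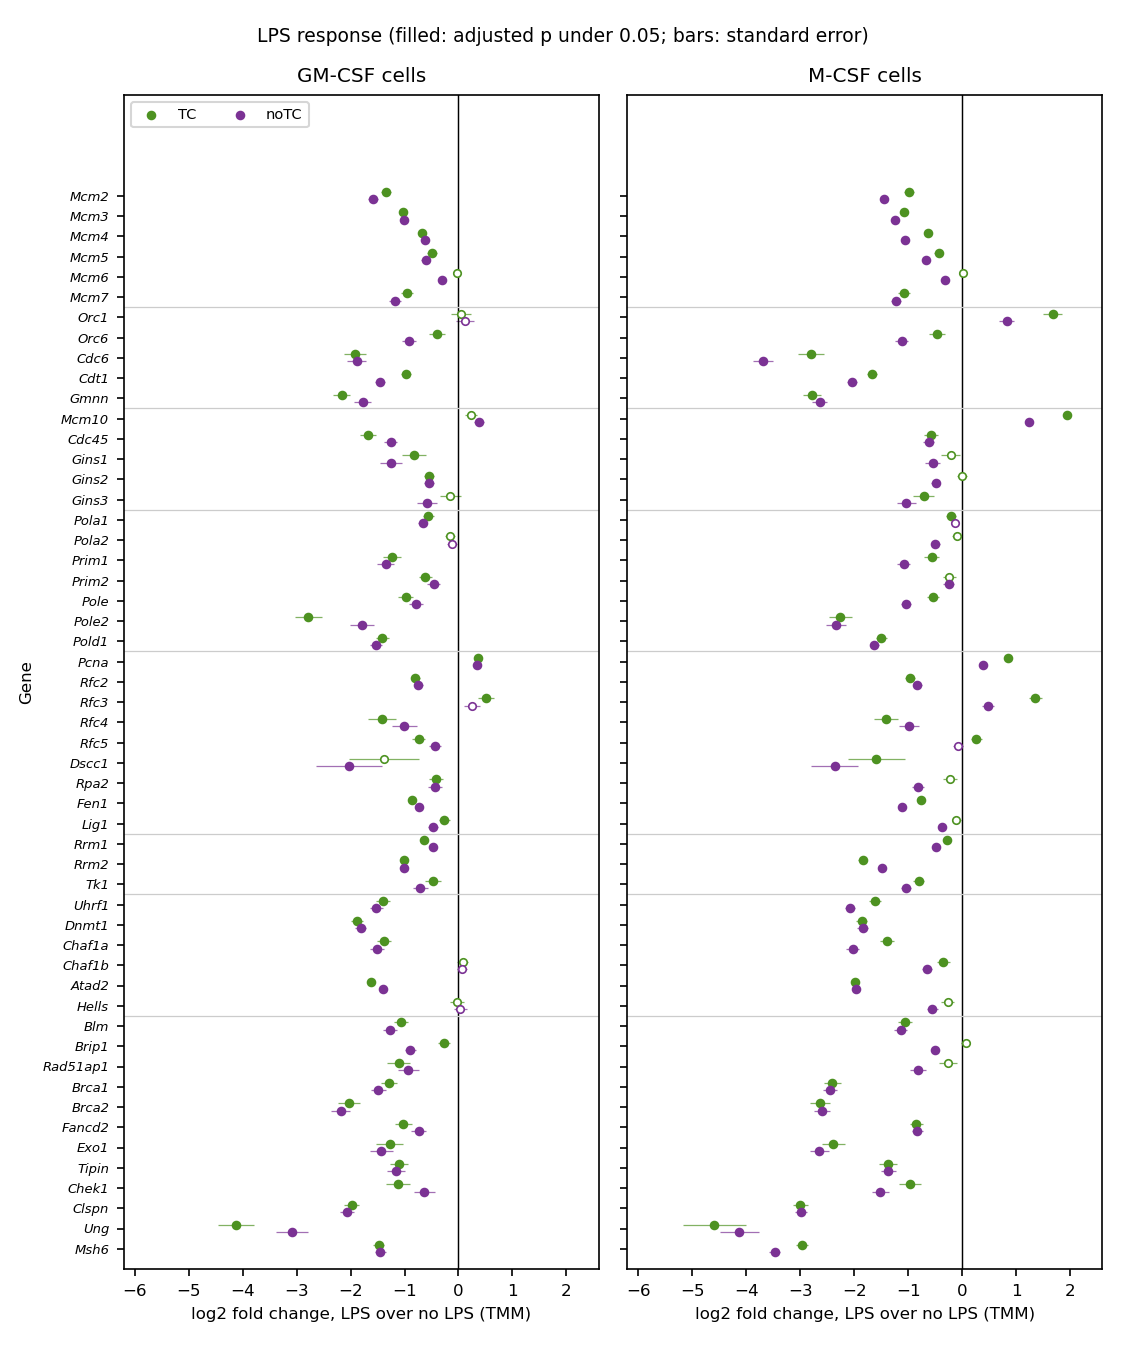
Log2 fold change of LPS over no LPS (horizontal axis, TMM scaling) for each of the 53 genes in GM cells (left) and M cells (right), on TC (green) and noTC dishes (purple), with the standard error as bars and filled points where the adjusted p is under 0.05. Most points lie left of 0, and in M cells Mcm10, Orc1, Pcna and Rfc3 lie to its right, although with scaling by library size Pcna and Rfc3 in M-noTC cells lie left of it.

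Other genes of the checkpoint and of recombination fell steeply as well. Clspn fell with log2 fold changes of -2.99 ± 0.11 in M-noTC, -2.996 ± 0.14 in M-TC, -2.07 ± 0.13 in GM-noTC and -1.98 ± 0.14 in GM-TC. Brca2, a homologous recombination gene, fell from 23.4 and 22.4 CPM in M-noTC to 4.16 and 3.44 CPM in M-noTC-LPS (-2.59 ± 0.15), and Brca1 fell there too (-2.45 ± 0.13). All 12 repair and checkpoint genes fell in both GM comparisons and in M-noTC; in M-TC 10 of the 12 fell, the exceptions being Brip1 (0.07 ± 0.08) and Rad51ap1 (-0.26 ± 0.17).

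Licensing genes were split. Geminin fell from 15.1 and 17.6 CPM in M-TC to 2.66 and 2.09 CPM in M-TC-LPS (-2.77 ± 0.17) and also fell in GM-TC (-2.16 ± 0.16). Cdt1 fell in M-TC (-1.67 ± 0.10) and GM-TC (-0.97 ± 0.09), while Orc1 did not fall in any comparison. The MCM ring genes fell by less than geminin, but in GM-TC Mcm2 and Mcm3 fell by more than Cdt1. Mcm5 was at 78.7 and 75.7 CPM in M-noTC and 49.7 and 46.8 CPM in M-noTC-LPS (-0.68 ± 0.07). Mcm6 was at 81.7 and 87.9 CPM in M-TC and 84.2 and 86.9 CPM in M-TC-LPS (0.01 ± 0.06), where the libraries overlapped. Outside M-TC cells Mcm2 fell the most of the 6, with -1.34 ± 0.09 in GM-TC, -1.58 ± 0.09 in GM-noTC and -1.44 ± 0.08 in M-noTC cells.

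Polymerase subunits differed among themselves. Pole2, the accessory subunit of the leading strand polymerase, fell in GM-TC (-2.78 ± 0.26) as well as in M-TC cells (-2.26 ± 0.21), against -0.98 ± 0.14 and -0.54 ± 0.11 for its catalytic partner Pole and -0.56 ± 0.10 and -0.20 ± 0.09 for Pola1. Pola1 in M-noTC cells was at 42.5 and 38.4 CPM at steady state and 37.3 and 36.6 CPM after LPS (-0.13 ± 0.07). Among chromatin genes Dnmt1 fell in GM-TC (-1.88 ± 0.11) and M-TC (-1.86 ± 0.11), as did Uhrf1 (-1.40 ± 0.13 and -1.61 ± 0.11). In GM cells Chaf1b was nearly level, at 12.3 and 11.96 CPM in GM-TC and 12.9 and 12.6 CPM in GM-TC-LPS (0.07 ± 0.10), and its value turned to -0.41 with library size scaling. Of the nucleotide genes Rrm2 fell in GM-TC (-1.01 ± 0.08) and M-TC (-1.84 ± 0.08), as did Tk1 (-0.47 ± 0.15 and -0.81 ± 0.10).

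A small set rose upon LPS challenge, mainly in M cells: 5 genes in M-TC (beside 37.6% of all genes called higher), 4 in M-noTC (36.4%), 2 in GM-TC (32.8%; 1 without the second GM-TC-LPS replicate) and 2 in GM-noTC (33.6%). With library size scaling these counts were 3, 1, 0 and 0. Mcm10, which helps to activate the loaded helicase, was at 14.04 and 15.6 CPM in M-TC and 55.3 and 58.7 CPM in M-TC-LPS, a log2 fold change of 1.94 ± 0.08 (edgeR adjusted p 6.05e-16), and at 30.2 and 30.7 and 70.3 and 73.5 CPM in the noTC groups (1.24 ± 0.07). These rises kept their sign and their call with library size scaling, at 1.11 and 0.51. In GM cells Mcm10 was at 10.03 and 8.61 CPM in GM-noTC and 11.9 and 12.3 CPM in GM-noTC-LPS (0.38 ± 0.10), a value that was -0.13 with library size scaling.

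Orc1 was at 2.23 and 2.51 CPM in M-TC, the lowest of the 8 groups, and at 7.38 and 7.85 CPM in M-TC-LPS (1.68 ± 0.18); in M-noTC cells it was at 6.17 and 6.16 CPM and, with LPS, 10.8 and 11.03 CPM (0.83 ± 0.14). With library size scaling the first was 0.85 and still called and the second 0.10 and not called. Its values in the 8 GM libraries lay between 3.50 and 5.35 CPM and overlapped between steady state and LPS on both dishes. The clamp Pcna rose in all 4 comparisons, from 168 and 172 to 304 and 312 CPM in M-TC (0.85 ± 0.06), from 328 and 319 to 416 and 427 CPM in M-noTC (0.38 ± 0.06), by 0.36 ± 0.06 in GM-TC and by 0.35 ± 0.06 in GM-noTC, but these values were 0.03, -0.34, -0.12 and -0.16 with library size scaling. Its direction after LPS therefore depended on the scaling.

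Rfc3, a subunit of the loader that opens Pcna, was at 7.499 and 8.91 CPM in M-TC and 19.6 and 22.7 CPM in M-TC-LPS (1.36 ± 0.12, and 0.53 with library size scaling). It rose by 0.48 ± 0.11 in M-noTC cells, where library size scaling gave -0.24, and by 0.51 ± 0.15 in GM-TC cells, where it gave 0.03. Rfc5 rose in M-TC cells by 0.26 ± 0.10, against -0.57 with library size scaling, while the other loader subunits Rfc2 and Rfc4 fell there (-0.96 ± 0.09 and -1.40 ± 0.22). The 4 subunits of the loader measured here thus did not move together.

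**Figure D4:**
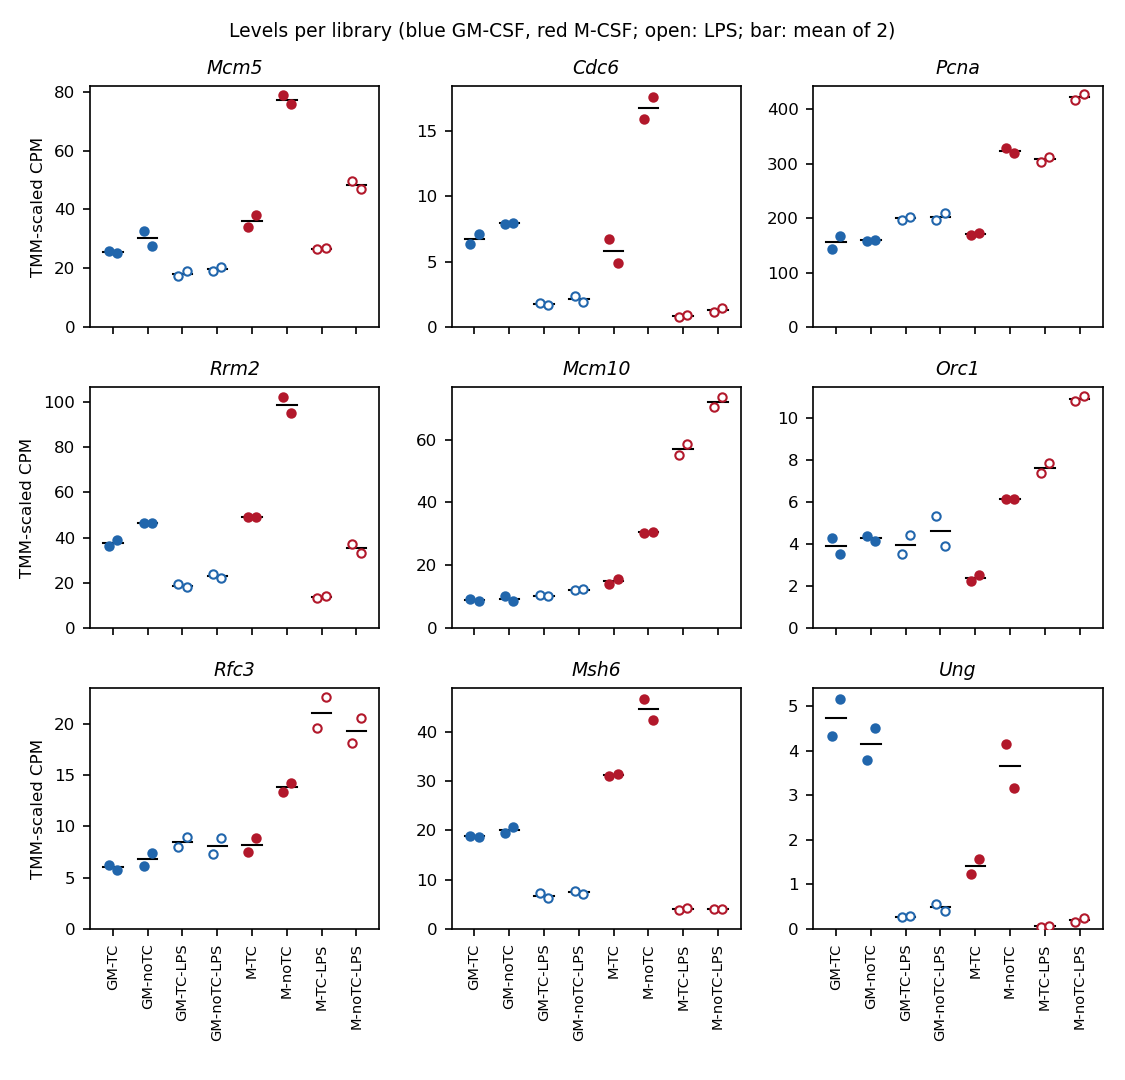
TMM-scaled CPM (vertical axis) of 9 genes in each library of the 8 groups (GM blue, M red, LPS open points), with the mean of the 2 replicates as a bar. By group mean, Mcm5, Cdc6, Rrm2 and Msh6 are highest in M-noTC, Mcm10 and Orc1 in M-noTC-LPS and Ung in GM-TC. The LPS differences of Pcna in GM and M-noTC cells and of Rfc3 in M-noTC cells are below 0 with library size scaling.

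Whether the dish alters the LPS response was tested as an interaction within each growth factor. In M cells 15 of the 53 genes responded more negatively, or rose less, on noTC than on TC dishes and 1 the other way, with a median of -0.30, beside 7.48% and 3.11% of all genes. The largest called differences were in 3 genes that rose in M cells, Rfc3 (-0.87 ± 0.17), Orc1 (-0.85 ± 0.23) and Mcm10 (-0.70 ± 0.10), followed by Orc6 (-0.66 ± 0.19) and Chaf1a (-0.64 ± 0.18), and the gene that went the other way was Rrm2 (0.36 ± 0.11). This count was 5 without the first M-TC or the first M-noTC replicate, 8 without the second M-TC replicate and 9 without the second M-TC-LPS or the second M-noTC-LPS replicate, and it was 7 with library size scaling. The call of Rrm2 was lost by DESeq2 and when any of 6 of the 8 libraries was left out: both M-TC, the second M-noTC, both M-TC-LPS and the first M-noTC-LPS replicate. In GM cells 0 genes were called in either direction by edgeR, with a median of -0.01; 3 were positive and 4 negative at an unadjusted p under 0.05, DESeq2 called 0, 1 was negative without the first GM-TC replicate, and 0.192% and 0.591% of all genes were called.

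Whether the LPS response on TC dishes differed between growth factors was tested in the same way. It was more positive in M than in GM cells for 12 genes and more negative for 9, with a median of 0.02. Both counts were near the shares of all genes, 23.3% and 17.8%. Mcm10 (1.71 ± 0.13), Orc1 (1.64 ± 0.26), Cdc45 (1.10 ± 0.20), Rfc5 (0.999 ± 0.15) and Rfc3 (0.85 ± 0.20) led the positive side, and Msh6 (-1.49 ± 0.16), Brca1 (-1.12 ± 0.22), Exo1 (-1.11 ± 0.35), Clspn (-1.02 ± 0.22) and Cdc6 (-0.88 ± 0.35) the negative side. Cdc45 was at 10.8 and 10.9 CPM in GM-TC and 3.46 and 3.34 CPM in GM-TC-LPS, but at 8.34 and 9.05 CPM in M-TC and 6.10 and 5.58 CPM in M-TC-LPS. With library size scaling 5 genes were positive and 22 negative, since the median of all genes shifted to -0.30, and without the second GM-TC-LPS replicate 5 were negative.

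The comparison of GM with M cells addressed the growth factor together with the seeding density, which was higher with GM-CSF. The 2 cannot be told apart here, nor where dish or LPS effects were compared between GM and M cells. At steady state on noTC dishes, 51 genes were lower in GM-noTC than in M-noTC and 0 higher by edgeR (0 also at an unadjusted p under 0.05 and by DESeq2), with a median log2 fold change of -1.07, beside 30.7% and 31.4% of all genes. Tk1 differed most, with 5.83 and 5.99 CPM in GM-noTC and 32.2 and 31.1 CPM in M-noTC (-2.42 ± 0.10), followed by Pole (-1.98 ± 0.10), Mcm10 (-1.71 ± 0.08), Fancd2 (-1.70 ± 0.11) and Dscc1 (-1.67 ± 0.38). The 2 genes not called were Ung (0.20 ± 0.20) and Rfc2 (-0.09 ± 0.08). The dish comparisons and these share their steady state libraries, so that the counts are not independent of those above. Markers of other cells differed between the same groups. The 8 myeloid progenitor markers summed to between 25.3 and 39.99 CPM in GM and between 6.45 and 13.04 CPM in M libraries, the largest share being Kit, and the 6 dendritic cell markers to between 14.3 and 74.2 and between 0.809 and 4.09 CPM. The 9 macrophage markers summed to between 37907 and 47832 CPM in GM and between 20533 and 30339 CPM in M libraries. Without Lyz2 the order was the opposite, with 3948 to 4543 CPM in GM and 5587 to 6067 CPM in M libraries at steady state, and 5391 to 6256 and 7948 to 9253 CPM after LPS. The remaining markers were split in both states. Adgre1, Csf1r, Cd68, Fcgr1 and Cd14 were higher in M libraries, Itgam and Mertk were higher in GM libraries, and Marco overlapped. The part of these differences, and of the neutrophil markers given above, in the growth factor comparisons was not tested.

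On TC dishes the growth factors lay closer, with 30 genes lower in GM-TC than in M-TC and 6 higher (median -0.38), beside 28.9% and 32.6% of all genes. With library size scaling, which moved the median of all genes to -0.29, 46 were lower and 1 higher. The 6 were Ung (1.76 ± 0.23), Orc1 (0.70 ± 0.19), Chaf1b (0.48 ± 0.10), Cdc45 (0.32 ± 0.12), Fen1 (0.26 ± 0.07, and -0.056 with library size scaling) and Gins2 (0.22 ± 0.09, and -0.0946). Ung was at 4.34 and 5.15 CPM in GM-TC and 1.24 and 1.57 CPM in M-TC. Tk1 was again the most different of those lower in GM (-1.87 ± 0.11), with 4.65 and 4.83 CPM in GM-TC and 17.6 and 17.1 CPM in M-TC.

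After LPS, 26 genes were lower and 8 higher in GM-TC-LPS than in M-TC-LPS (median -0.41; 32.9% and 33.9% of all genes), and 40 were lower and 2 higher in GM-noTC-LPS than in M-noTC-LPS (median -0.85; 32.6% and 33.5%). Mcm10 showed the largest difference on both dishes, -2.46 ± 0.08 on TC and -2.57 ± 0.08 on noTC. Higher in GM were Msh6 and Cdc6 on both dishes, at 0.76 ± 0.14 and 1.11 ± 0.31 on TC and 0.87 ± 0.13 and 0.73 ± 0.26 on noTC; Cdc6 was at 1.86 and 1.72 CPM in GM-TC-LPS and 0.738 and 0.930 CPM in M-TC-LPS. On TC dishes Chaf1b (0.90 ± 0.11), Brca1 (0.70 ± 0.19), Cdt1 (0.45 ± 0.11), Rrm2 (0.45 ± 0.09) and Rfc2 (0.23 ± 0.10) were also higher in GM, as was Ung, with 5 and 6 counts in GM-TC-LPS and 1 in each M-TC-LPS library. On noTC dishes 1 gene was higher in GM without the first GM-noTC-LPS or the first M-noTC-LPS replicate. In all 4 comparisons of growth factor 20 of the 53 genes were lower in GM, as were 16.3% of all genes.

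Other genes of replication and of the cell cycle were examined as lists, beside 16.1% of all genes called higher in M-noTC than in M-TC. Of 32 further replication genes 19 were higher in M-noTC than in M-TC (median 0.33), led by Dtl (1.36 ± 0.11), a ubiquitin ligase adaptor that removes Cdt1 in S phase, Ticrr (1.22 ± 0.13), which helps to fire origins, and Timeless (1.16 ± 0.11), a fork protection gene. Of 9 further nucleotide enzymes 6 were higher (median 0.51), among them Dut (0.93 ± 0.13) and Tyms (0.76 ± 0.12), which act in thymidylate synthesis. Of 18 E2F and G1 to S genes 15 were higher (median 0.47), led by the cyclin E genes Ccne2 (1.28 ± 0.12) and Ccne1 (1.26 ± 0.13) and the repressor E2f7 (1.15 ± 0.15). Of 21 further repair genes 11 were higher (median 0.62), among them Fancb (1.16 ± 0.23), and 7 of 8 further chromatin genes, led by the histone chaperone Asf1b (0.74 ± 0.07). All 28 mitosis genes were higher (median 0.59), led by Ube2c (0.85 ± 0.07), Birc5 (0.75 ± 0.09) and Top2a (0.74 ± 0.06). Comparing GM-noTC with GM-TC, 4.69% of all genes were called higher. Of the lists, 5 of the 32 replication, 2 of the 18 E2F and G1 to S and 6 of the 28 mitosis genes were higher. Among the 21 repair genes 1 was higher, which is near the share of all genes. By edgeR 0 of the 9 nucleotide genes were called (1 higher and 2 lower at an unadjusted p under 0.05). The same held for 0 of the 8 chromatin genes (2 higher and 0 lower). Cenpe (0.44 ± 0.09), Top2a (0.39 ± 0.06) and Mki67 (0.37 ± 0.09) were among the mitosis genes.

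Upon LPS challenge the lists were mixed. In M-TC cells 17 of the 32 further replication genes fell and 9 rose, beside 36.4% and 37.6% of all genes. In GM-TC 20 fell and 6 rose, beside 34.2% and 32.8%. Dtl fell the most in M-TC (-2.78 ± 0.19) and the nuclease Dna2 in GM-TC (-2.26 ± 0.13), while Timeless rose by 2.15 ± 0.12 in GM-TC and the MCM-binding gene Mcmbp by 1.68 ± 0.07 in M-TC. The activator E2f2 fell steeply, with -4.50 ± 0.12 in M-noTC, -5.28 ± 0.14 in M-TC, -3.83 ± 0.14 in GM-noTC and -4.33 ± 0.15 in GM-TC, whereas E2f5 rose by 1.07 ± 0.11, 1.77 ± 0.11, 1.56 ± 0.11 and 1.39 ± 0.11. Rbbp8, which starts end resection at breaks, rose by 1.35 ± 0.07 in GM-TC and 2.09 ± 0.07 in M-TC, and the histone chaperone Asf1a by 1.54 ± 0.12 and 1.297 ± 0.11. Of the 28 mitosis genes 24, 21, 23 and 23 fell in M-noTC, M-TC, GM-noTC and GM-TC (medians -0.78, -0.64, -0.63 and -0.74). In that order 35.9%, 36.4%, 34% and 34.2% of all genes fell. Kif23 fell the most (-2.35 ± 0.11 in GM-TC), while Mki67 rose by 1.80 ± 0.09 in GM-TC and Cenpe by 1.42 ± 0.07 in M-TC. For several lists the summed CPM, which the most abundant genes set, did not follow the median. For the mitosis list after LPS it was 0.847, 1.08, 1.39 and 1.56 times its steady state level in the same order, and 0.512, 0.607, 0.979 and 1.12 times with library size scaling. The sum of the 9 further nucleotide genes was 1.48, 1.55, 1.32 and 1.199 times its steady state level, and 0.892, 0.876, 0.929 and 0.859 times with library size scaling. That of the 32 further replication genes was 0.871, 1.07, 1.02 and 1.03 times (0.526, 0.605, 0.7197 and 0.735), and that of the 21 further repair genes was above its steady state level in M-TC alone, at 1.07 times (0.602). The sum of the 53 genes was 0.602, 0.742, 0.619 and 0.634 times its steady state level (0.364, 0.418, 0.435 and 0.454), below 1 on both scales in all 4 comparisons.

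**Figure D5:**
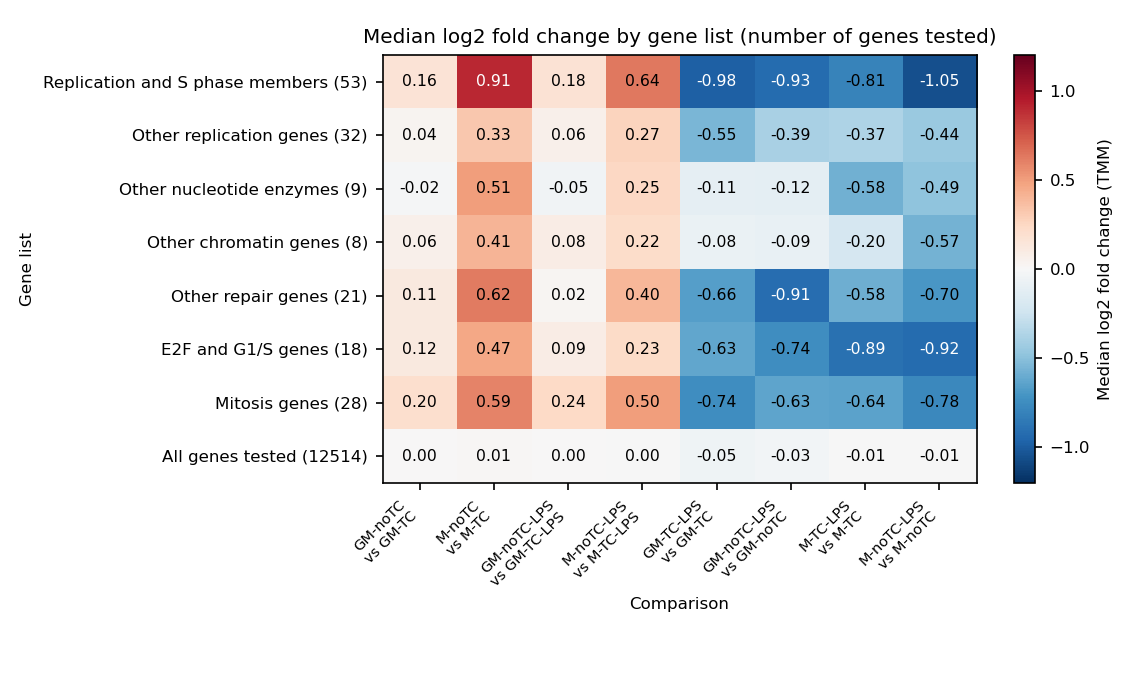
Median log2 fold change (colour and printed value, TMM scaling) of the 53 genes, of 6 further lists and of all genes tested, in rows with the number of genes tested, for the 4 dish and the 4 LPS comparisons, in columns. The 53 genes have the largest median of the lists in M-noTC against M-TC (0.91). The 53 genes and the lists were chosen with earlier results of these data known, so this order is a description only. The median of every list is below 0 in all 4 LPS comparisons. The summed CPM of the mitosis, nucleotide, replication and repair lists was nevertheless above its steady state level in some of them under TMM scaling.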

How the data were processed

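Per the study's methods, reads of oligo(dT)-selected RNA were aligned to the mouse genome with HISAT2 and quantified with RSEM; the submitters' processing notes also name fastp 0.18.0, Bowtie2 2.2.8 and StringTie 1.3.1. The values used are the expected counts per gene that the authors deposited in 1 table of the 16 libraries; the genome build and annotation behind them are not given in the sources used here.

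Expected counts were rounded and filtered with filterByExpr by group, which kept 12514 genes. They were fitted with edgeR 4.0.16 (R 4.3.3) by quasi-likelihood, with TMM scaling, in 1 model of 8 groups without a replicate block, since the deviations of same-numbered libraries were not correlated. Dish, LPS and growth factor comparisons and their interactions were contrasts of this model, with Benjamini-Hochberg adjustment over all genes tested. Standard errors were the log2 fold change divided by the square root of F. The common dispersion was 0.00226. On simulated counts, 90 of 100 genes changed 1.5-fold and 100 of 100 changed 2-fold were recovered for M-noTC against M-TC, and 13 unchanged genes were called. The simulation gave every gene the common dispersion and changed only genes above a minimum mean count. Recovery of genes with fewer counts or a larger spread was not simulated. Alternatives were DESeq2 1.42.0, other scalings, no filter, a replicate block, fits to fewer libraries and subtraction of shared reads. The 53 genes and all lists were chosen with earlier results of these data known. The genes named were fixed representatives of each role, up to 5 called genes per direction with the largest change, every gene called against the majority, and up to 3 per direction of each other list; some genes that this rule names are not reported here. Intervals on counts cover counting error only.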

Additional observations from a re-analysis of the deposited data

Results flagged for a closer look

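For the following genes the effect of the dish or of LPS differed between the cells compared, by edgeR's interaction test with a Benjamini-Hochberg adjusted p under 0.05 over all genes; no explanation was tested. The dish effect at steady state was larger in M than in GM cells for 42 of the 53 genes, beside 6.4% of all genes. It differed most for Ung (1.56), Cdc6 (1.31), Orc1 (1.23), Chaf1b (1.21) and Chek1 (1.06, log2 difference). After LPS the dish effect was larger in M cells for 17 genes, beside 3.71% of all genes. These were led by Rrm2 (1.07), Mcm7 (0.92), Chaf1b (0.92), Clspn (0.90) and Brca1 (0.86). The LPS response of M cells was more negative on noTC than on TC dishes for 15 genes, beside 7.48% of all genes. These were led by Rfc3 (-0.87), Orc1 (-0.85), Mcm10 (-0.70), Orc6 (-0.66) and Chaf1a (-0.64). It was more positive for 1, Rrm2 (0.36), beside 3.11% of all genes. On TC dishes the LPS response was more positive in M than in GM cells for 12 genes and more negative for 9. Both counts were near the shares of all genes, 23.3% and 17.8%. Mcm10 (1.71), Orc1 (1.64), Cdc45 (1.10), Rfc5 (0.999) and Rfc3 (0.85) led the positive side. Msh6 (-1.49), Brca1 (-1.12), Exo1 (-1.11), Clspn (-1.02) and Cdc6 (-0.88) led the negative side.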

How the results depend on the processing

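Counts are of the 53 genes, higher and lower. With scaling by library size alone, LPS gave 1 higher in M-noTC, 3 in M-TC, 0 in GM-noTC and 0 in GM-TC; GM-TC against M-TC gave 1 and 46; the LPS response gave 7 lower (noTC minus TC, M), 1 lower (noTC minus TC, GM), and 5 and 22 (M minus GM, TC). It turned the sign of Orc1 (-0.44), Mcm10 (-0.25), Pcna (-0.12) and Chaf1b (-0.41) with LPS in GM-TC, of the same 4 (-0.39, -0.13, -0.16 and -0.44) and Hells (-0.48) in GM-noTC, of Pcna (-0.34) and Rfc3 (-0.24) in M-noTC, of Rfc5 (-0.57) in M-TC, and of Fen1 (-0.056) and Gins2 (-0.0946) in GM-TC against M-TC. Without the filter, GM-noTC-LPS against GM-TC-LPS gave 6 higher and the LPS response in GM 1 lower. DESeq2 gave 0 higher for the LPS response in M, and a fit to the 4 libraries of GM-noTC against GM-TC gave 0 higher. With a fold over 2 and an unadjusted p under 0.05, which asks for larger changes, dish comparisons gave 0 (GM) and 19 (M) higher, and 0 and 3 after LPS; LPS gave 1 and 30 (M-noTC), 3 and 22 (M-TC), and 0 and 26 in both GM groups; growth factor comparisons gave 1 and 4 (TC), 30 lower (noTC), 2 and 11 (TC-LPS) and 1 and 23 (noTC-LPS); interactions gave 6, 1, 0 and 0, and 3 and 4. Apart from fewer samples or genes tested, the cause was not tested.

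Leaving out single replicates gave 2 to 10 higher in GM-noTC against GM-TC, 1 to 2 higher with LPS in GM-TC, 1 to 2 higher in GM-noTC-LPS against M-noTC-LPS, 0 to 1 higher and 5 to 12 lower for the LPS response in M, 0 to 1 lower in GM, and 5 to 9 lower for M minus GM. M-noTC against M-TC gave 48 to 51. Under a replicate block no count moved by over 1.5 times (6 in GM-noTC and 51 in M-noTC against TC). Over all genes, the deviations of same-numbered libraries correlated between -0.069 and 0.062 in the groups compared. Counting noise weakens such a correlation, so it cannot tell whether same-numbered libraries came from the same mouse or culture. With 2 libraries a group and 17527802 to 31458363 counts each, changes of about 1.5-fold or less may be missed, and larger ones in genes with few counts. Ung and Dscc1 are limited by counts after LPS.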
